A study of Mus musculus with 24 samples.

Results

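Most of the genes examined here build the cornified envelope. This cross-linked protein shell replaces the plasma membrane of a keratinocyte as it dies at the skin surface. Cdsn, Krtdap, Sbsn and Dmkn instead encode an adhesive protein of corneodesmosomes and secreted products. All genes were taken by symbol from a table of 18368 genes: every gene whose symbol began with Lce or Sprr and a digit, and 14 genes listed by name. This gave 48 members, of which 21 were Lce genes (14 Lce1, 6 Lce3 and 1 Lce6), 14 were Sprr genes (2 Sprr1, 10 Sprr2, 1 Sprr3 and 1 Sprr4) and 13 were named genes (Lor, Ivl, Flg2, Hrnr, Rptn, Crnn, Tgm1, Tgm3, Tgm5, Cdsn, Krtdap, Sbsn and Dmkn). Flg was not analysed here. Of the 48 members, 41 lay on chromosome 3, most of them between Lor and Rptn in the epidermal differentiation complex.

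The libraries came from 12 CD1 mice, an outbred strain, aged 7 weeks and labelled as in the resting phase of the hair cycle. Each mouse was wounded at a single site, with 4 mice for the abdomen, 4 for the back and 4 for the cheek, by a full-thickness excision of 2 mm diameter. The wound was collected on day 3 together with unwounded skin next to it, giving 6 groups of 4 whole-tissue libraries: unwounded abdomen, back and cheek, and wound of the abdomen, back and cheek. Abdomen and back mice carried a pair of wounds and cheek mice a single wound. All groups shared strain, age, shaving, anaesthesia and analgesia, and the unwounded skin came from wounded animals.

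In the outer epidermis, keratinocytes lay down involucrin as a scaffold, transglutaminases then join loricrin, small proline-rich proteins and late cornified envelope proteins to it, and corneodesmosomes hold the finished cells together. The genes for most of these proteins sit side by side in the epidermal differentiation complex. In healthy interfollicular skin loricrin and the Lce1 genes are the major late products, whereas Sprr and Lce3 genes are best known from stressed, inflamed or injured epidermis.

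The members that carry the results are shown first by the 250 bases before their start in RefSeq (GRCm38.p6), written 5′ to 3′ on the strand of the gene. Sprr1b, Sprr2e, Lce3c and Rptn stand for members higher in wounds at every site, and Lce1m, Lor and Flg2 for late genes of the same complex that were not. Sprr2e and Lce3c were picked for display after their values had been seen. Capitals mark TGANTCA, the site of AP-1 factors, TATAAA, the TATA box, and AACNGGTT, a form of the site of Grainyhead-like factors. All were searched on both strands, and no matches within a window shared a base.

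Sprr1b (chr3:92438780-92439029, minus strand): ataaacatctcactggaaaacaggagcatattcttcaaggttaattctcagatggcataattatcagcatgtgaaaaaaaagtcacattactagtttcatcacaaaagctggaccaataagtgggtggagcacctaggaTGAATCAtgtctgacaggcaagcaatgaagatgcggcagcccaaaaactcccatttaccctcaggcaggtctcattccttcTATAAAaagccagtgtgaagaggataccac

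Sprr2e (chr3:92351893-92352142, plus strand): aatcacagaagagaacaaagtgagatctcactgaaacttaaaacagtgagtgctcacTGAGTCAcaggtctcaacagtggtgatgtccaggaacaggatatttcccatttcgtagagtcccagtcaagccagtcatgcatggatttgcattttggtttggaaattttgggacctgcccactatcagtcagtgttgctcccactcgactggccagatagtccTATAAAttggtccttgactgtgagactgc

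Lce3c (chr3:92944236-92944485, plus strand): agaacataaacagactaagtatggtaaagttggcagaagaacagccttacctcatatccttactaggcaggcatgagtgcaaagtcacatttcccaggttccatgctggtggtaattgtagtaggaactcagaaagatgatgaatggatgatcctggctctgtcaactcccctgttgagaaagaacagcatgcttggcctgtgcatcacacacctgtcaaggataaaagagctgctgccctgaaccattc

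Rptn (chr3:93393449-93393698, plus strand): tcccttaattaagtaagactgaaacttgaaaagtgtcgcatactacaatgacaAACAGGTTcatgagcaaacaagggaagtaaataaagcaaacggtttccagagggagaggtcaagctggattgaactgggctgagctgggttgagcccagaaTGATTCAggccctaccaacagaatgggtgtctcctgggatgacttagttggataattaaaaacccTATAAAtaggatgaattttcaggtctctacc

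Lce1m (chr3:93019062-93019311, minus strand): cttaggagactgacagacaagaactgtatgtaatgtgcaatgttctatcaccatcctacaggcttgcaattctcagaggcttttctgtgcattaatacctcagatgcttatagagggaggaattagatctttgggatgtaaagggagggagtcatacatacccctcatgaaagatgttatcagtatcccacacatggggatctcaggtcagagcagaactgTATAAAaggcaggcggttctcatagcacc

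Lor (chr3:92083143-92083392, minus strand): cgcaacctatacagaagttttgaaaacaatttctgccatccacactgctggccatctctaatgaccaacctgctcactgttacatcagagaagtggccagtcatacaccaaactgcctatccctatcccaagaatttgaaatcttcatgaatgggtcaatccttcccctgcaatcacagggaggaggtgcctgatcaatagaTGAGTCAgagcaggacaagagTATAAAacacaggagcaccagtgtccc

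Flg2 (chr3:93197023-93197272, plus strand): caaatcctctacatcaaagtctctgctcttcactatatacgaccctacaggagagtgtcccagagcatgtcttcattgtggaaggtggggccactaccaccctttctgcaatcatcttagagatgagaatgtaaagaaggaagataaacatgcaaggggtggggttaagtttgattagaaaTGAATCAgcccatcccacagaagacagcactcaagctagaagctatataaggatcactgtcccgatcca

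Promoter windows were found for 47 of the 48 members, 51 windows in all. TGANTCA occurred in 19 of the 51 (37.3%), against 6.75% of all 32851 promoter windows of the same length, and TATAAA in 21 (41.2%) against 12.4%. AACNGGTT occurred in 1 window (1.96%), that of Rptn, against 1.79% of all windows. The matches followed family lines: 7 of the 10 Sprr2 windows, both Sprr1 windows and the windows of Lor and Ivl held TGANTCA, while none of 13 Lce1 and none of 6 Lce3 windows did. In the 7 Sprr2 windows a tgagtca began between 193 and 198 bases before the start, and the same 7 had TATAAA at 29 bases. These are matches to letters in a short window and no sign of binding.

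Levels are given in FPKM, the number of fragments of a gene scaled to its length and to the mapped fragments of the library, so that genes can be set against each other. The FPKM of a library summed to between 490830 and 608888, between 15781 and 16577 genes were above 0 in each, and relative depth read from the steps of low values ran from 0.957 to 1.05 of the median library. Of the keratins of skin, Krt10, a keratin of differentiating cells, lay between 1652 and 4008 FPKM in the 24 libraries, and the mucosal markers Krt4, Krt13 and Krt76 summed to at most 1.62 FPKM. Krt2, also counted as a marker of differentiating epidermis, did not exceed 1.0 FPKM.

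A single library stood apart before any comparison. Unwounded cheek of mouse 4 had Crnn (cornulin, a filaggrin-related protein) at 114 FPKM, while the other 23 libraries had at most 1.14, and Tchh (trichohyalin, of the inner root sheath) at 562 FPKM, while the others had at most 8.36. The 6 markers of the growing hair follicle summed to 4557 FPKM there, against a median of 17.0 over the 4 unwounded cheek libraries and at most 72.7 outside the cheek, which goes against a resting phase in that piece of skin. Back mouse 2 (72.7 FPKM) and cheek mouse 3 (32.7 FPKM) came next, and the other unwounded libraries had at most 2.36. The same library had the highest unwounded level of Sprr1a (1310 FPKM), Sprr4 (168 FPKM), Sprr1b (30.3 FPKM) and Tgm3 (22.6 FPKM). Member counts without mouse 4 of the cheek are given below, as are several single differences that it moved.

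**Figure D1:**
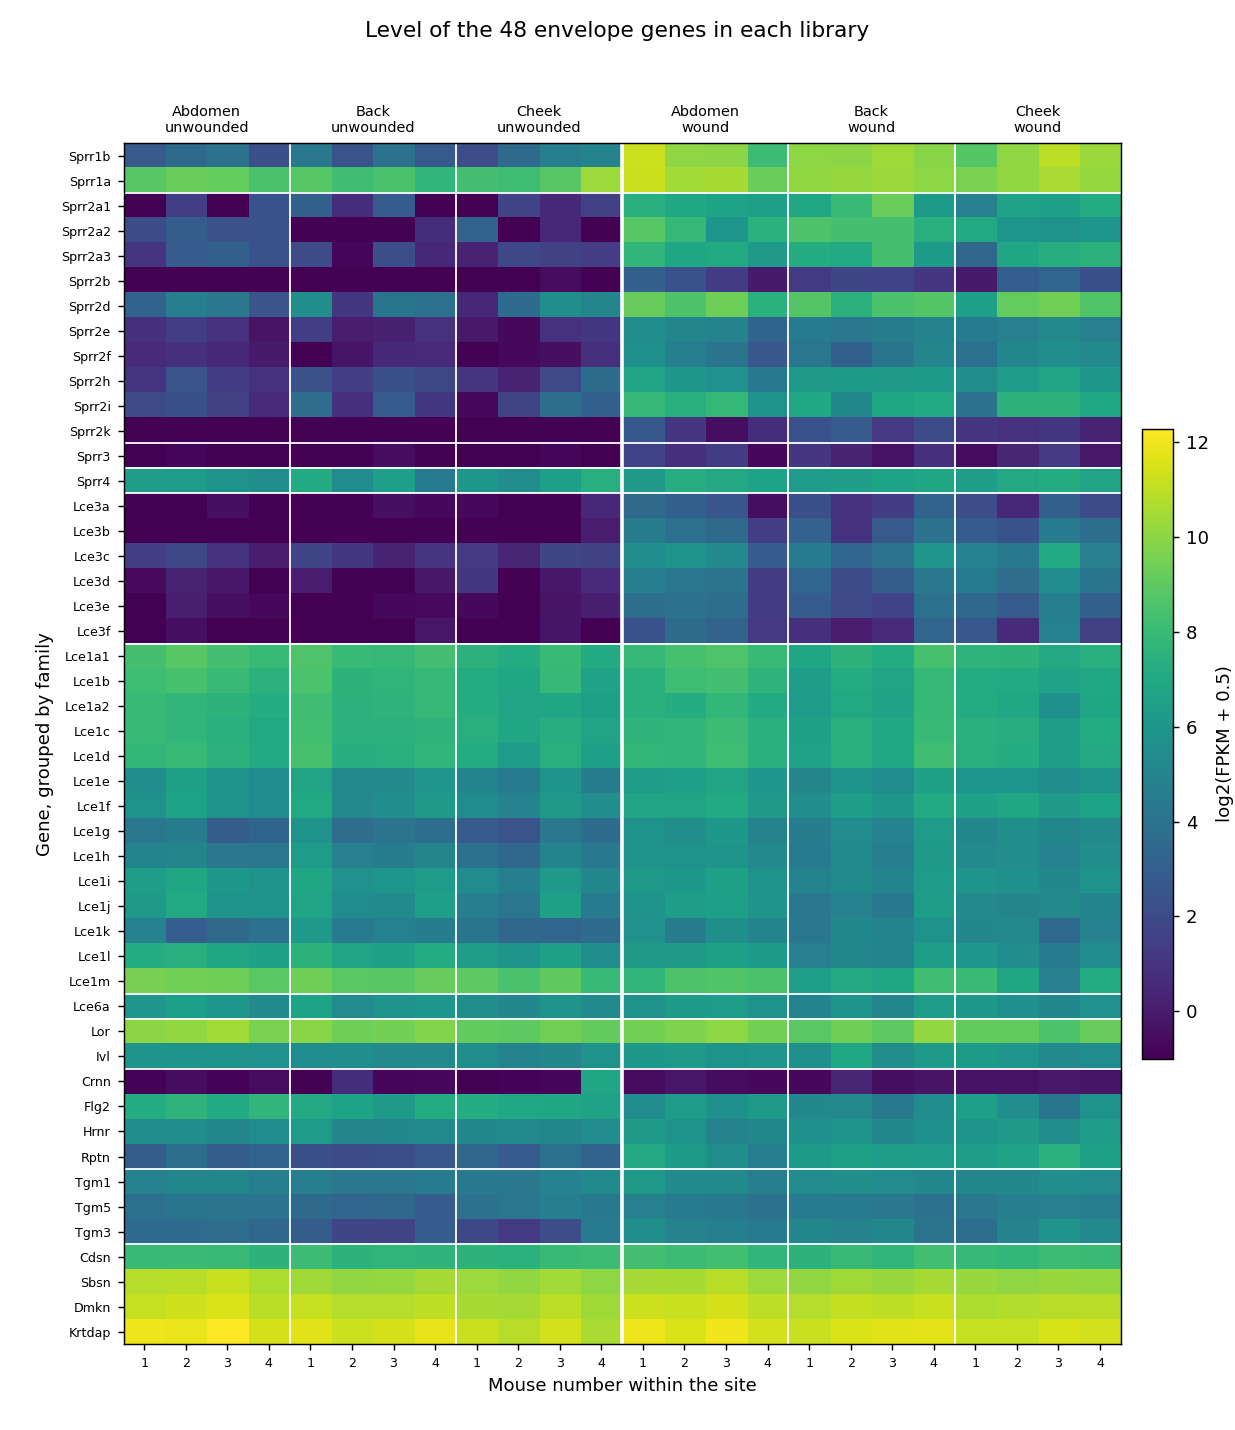
Level of each of the 48 members in each of the 24 libraries, as log2(FPKM + 0.5) on a colour scale, with members in rows by family and libraries in columns by site, state and mouse number. The Sprr2 and Lce3 rows change from dark to light between unwounded and wound columns, the Lce1, Lor, Sbsn, Dmkn and Krtdap rows are light throughout, and Crnn is light only in unwounded cheek of mouse 4.

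In unwounded skin the members ranged from 0 to 5002 FPKM. Taken over the 12 unwounded libraries, the highest means were those of Krtdap (3010 FPKM), Dmkn (1997 FPKM), Sbsn (1464 FPKM), Lor (823 FPKM), Lce1m (537 FPKM) and Sprr1a (474 FPKM). The first 3 are secreted products of the suprabasal layers, and their ranges overlapped, from 1580 to 5002 FPKM for Krtdap, 1333 to 3060 for Dmkn and 1062 to 2283 for Sbsn. At the other end, Sprr2k was listed at 0 in all 12 unwounded libraries, and Lce3b and Sprr2b in 11 of 12. The 14 Lce1 genes together gave between 1004 and 3246 FPKM per unwounded library, the 6 Lce3 genes between 0.61 and 5.46 FPKM. The members made up 1.30 to 2.71% of all FPKM in unwounded skin and 1.77 to 3.20% in wounds. Cdsn, Krtdap, Sbsn and Dmkn together gave 4254 to 10605 FPKM per unwounded library, where all members gave 6840 to 15188 FPKM.

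The wound comparison asked which members differed between the wound and the unwounded skin of the same mouse. Small proline-rich genes (8 of the 10 Sprr2 genes and Sprr1b), 4 of the 6 Lce3 genes and Rptn (repetin) rose in day 3 wounds of all 3 sites, while loricrin, involucrin and the Lce1 genes did not pass the test at any site. Flg2 (filaggrin-2) was the only member to fall. Each site was tested with limma on log2(FPKM + 0.5), with the mouse as a block, and a member was called at a Benjamini-Hochberg adjusted p under 0.001 over the 14423 genes that reached 0.5 FPKM in at least 4 libraries. Of the 48 members, 47 reached this level, and Crnn did not. Sprr2b, Sprr2k, Sprr3, Lce3a, Lce3b, Lce3e and Lce3f reached it in 4 libraries only through the wounds. The filter thus favoured a rise in these genes, so counts and medians over the tested members are descriptions. The log2(FPKM + 0.5) scale understates the change of genes with low levels.

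In the abdomen 15 of 47 members rose and 1 fell, where 3.92% of all tested genes rose and 1.04% fell. In the back 17 rose and 1 fell, against 10% and 4.37% of all genes. In the cheek 14 rose and none fell, against 6.50% and 2.19%, where Flg2 had the smallest adjusted p of the lower members (0.0011) and, with limma, 30 of the 47 had an unadjusted p under 0.05, against 46.4% of all genes. At an adjusted p under 0.05, 23 members rose and 2 fell in the abdomen (16.9% and 16.0% of all genes), 24 and 5 in the back (28.0% and 17.9%) and 24 and 2 in the cheek (19.7% and 16.9%). The median log2 difference of the members was 1.08 in the abdomen, 0.94 in the back and 1.07 in the cheek, where the median of all genes was -0.01, 0.07 and 0.01. The same 14 members rose at all 3 sites: Sprr2a1, Sprr2a2, Sprr2a3, Sprr2d, Sprr2e, Sprr2f, Sprr2h, Sprr2i, Sprr1b, Lce3b, Lce3c, Lce3d, Lce3e and Rptn. Each of them was higher in the wound of all 12 mice. So were Sprr2b, Sprr2k, Sprr3, Lce3a, Lce3f and Tgm3, which were not called at all 3 sites. For Lce3b, Lce3e, Sprr2b, Sprr2k, Sprr3, Lce3a and Lce3f the filter favoured this direction.

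Mice carried unequal weight in these counts. Without abdomen mouse 3 the number that rose in the abdomen was 7, and without abdomen mouse 1 it was 8. Without cheek mouse 2 the number for the cheek was 9, and without cheek mouse 4, the mouse of the library that stood apart, it was 13. Of the 42 calls of the 14 members over the sites, 22 held in each of the 12 fits that left out 1 mouse, and the highest adjusted p among the others was 0.0027. Sprr1b, Sprr2e, Sprr2f and Sprr2i held at every site in each of these fits. With the 8 libraries of a single site in each fit, 2 members rose in the abdomen, 12 in the back and 8 in the cheek.

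**Figure D2:**
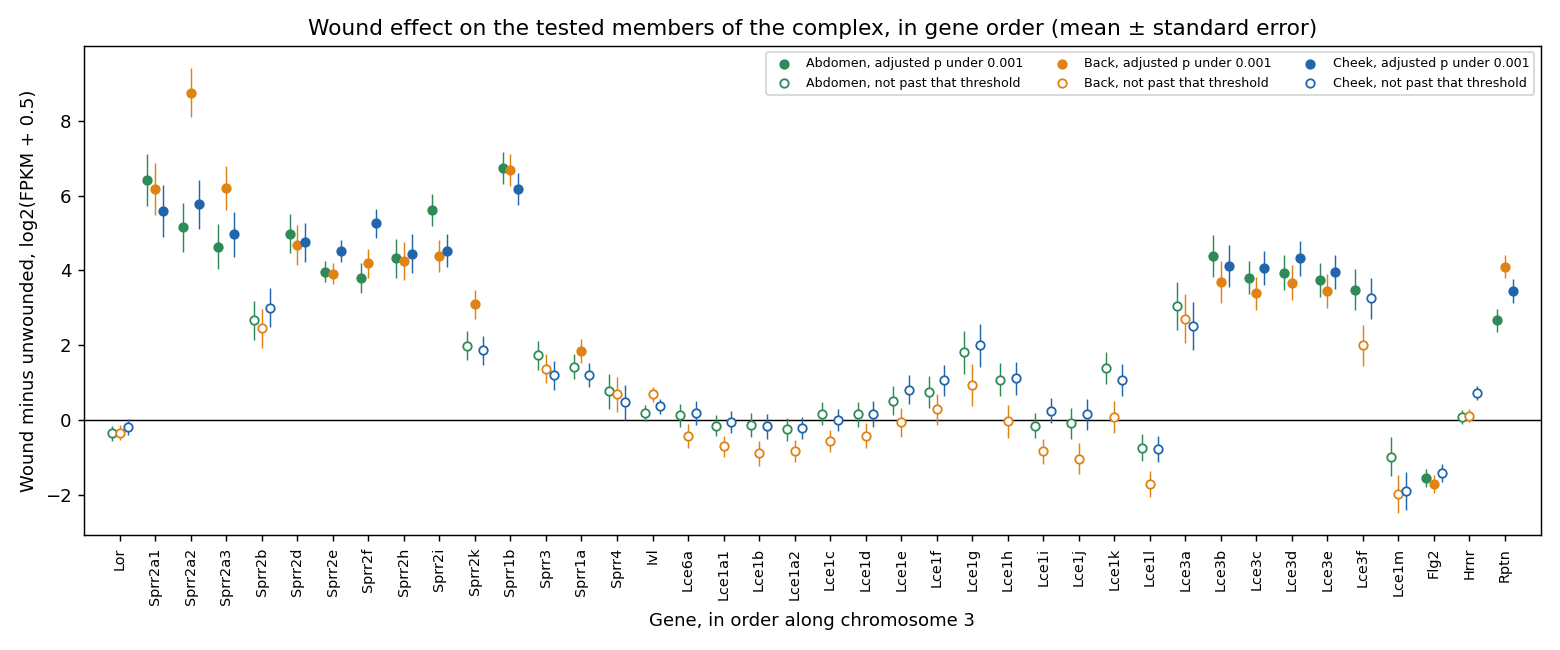
Difference between wound and unwounded skin in log2(FPKM + 0.5) for the tested members on chromosome 3 from Lor to Rptn, in gene order, with the estimate as a point and its standard error as a bar for abdomen (green), back (orange) and cheek (blue). Filled points passed an adjusted p of 0.001: they gather in the Sprr2 and Lce3 blocks, at Sprr1b and at Rptn, while the Lce1 block lies around 0 and Flg2 below it.

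Markers of cell types differed between the states too, and in whole tissue more cells of a type and more RNA per cell cannot be told apart. The 4 markers of activated keratinocytes (Krt6a, Krt6b, Krt16 and Krt17) summed to 387 to 1285 FPKM in unwounded skin and 2107 to 14682 FPKM in wounds. All 4 rose in the back and 3 of 4 in the abdomen and the cheek. Basal keratinocyte markers summed to 3649 to 5897 FPKM in unwounded skin and 5300 to 10912 FPKM in wounds, though of the 6 only Krt14 rose, and Krt15 fell in the abdomen. Of 5 suprabasal markers only Krt1 rose, at all sites, and the sum went from 3479 to 7165 FPKM in unwounded skin to 5660 to 7974 FPKM in wounds. Krt77, another of the 5, was lower in the wound of every mouse. It lay at 769 to 1486 FPKM in unwounded skin and 97.5 to 854 FPKM in wounds. Fibroblast markers summed to 6849 to 17982 FPKM in unwounded skin and 4083 to 9476 FPKM in wounds, with 1 of 6 passing the test, in the back. The 6 skeletal muscle markers, none of which passed, summed to 440 to 19718 FPKM in unwounded skin and 1583 to 5841 FPKM in wounds. Neutrophil markers summed to at most 7.75 FPKM in unwounded skin and at least 27.6 FPKM in wounds, with 3, 4 and 4 of 6 rising in abdomen, back and cheek. Macrophage markers summed to 375 to 765 FPKM in unwounded skin and 701 to 1177 FPKM in wounds, with 2, 4 and 3 of 6 rising. Adipocyte markers summed to 427 to 1263 FPKM in unwounded skin and 342 to 787 FPKM in wounds, with 2 of 5 falling, in the back. Proliferation markers summed to 18.6 to 89.99 FPKM in unwounded skin and 50.9 to 99.1 FPKM in wounds, with 1 of 5 rising, in the back, and none of the 4 sebaceous gland markers passed. The part of these shifts in the members' changes was not tested.

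Sprr1b, which encodes a small proline-rich bridging protein, had the highest mean wound level of the 14 members that rose at every site. In the unwounded abdomen it lay at 5.97, 11.5, 15.4 and 4.26 FPKM in mice 1 to 4, in the back at 19.3, 5.01, 15.5 and 6.18 and in the cheek at 3.89, 11.4, 25.2 and 30.3. In the wounds of the same mice it lay at 2477, 1087, 999 and 279 FPKM in the abdomen, 1044, 991, 1328 and 971 in the back and 436, 1065, 1965 and 1251 in the cheek. No wound library came near an unwounded one, the lowest wound value being that of abdomen mouse 4. The difference on the log2 scale was 6.73 (SE 0.43), 6.69 (SE 0.43) and 6.18 (SE 0.43) in abdomen, back and cheek, or 106-fold, 103-fold and 72.6-fold on the log2(FPKM + 0.5) scale, with limma adjusted p of 4.7e-06, 1.7e-06 and 3.5e-06.

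The other Sprr1 gene, Sprr1a, was already abundant in unwounded skin. Unwounded levels were 449, 620.1, 571 and 357 FPKM in the abdomen, 452, 301, 359 and 213 in the back and 320.5, 291, 449 and 1310 in the cheek. Wound levels were 2357, 1415, 1493 and 613 FPKM in the abdomen, 1114, 1209.8, 1236 and 1055 in the back and 775, 1105, 1537 and 1171 in the cheek. The groups did not overlap in the back, and in the abdomen the lowest wound value, that of mouse 4, was under the highest unwounded value. In the cheek, mouse 4 alone was lower in the wound. Sprr1a rose in the back only at the set threshold, by 1.85 (SE 0.32, adjusted p = 0.00085), against 1.44 in the abdomen (adjusted p = 0.0065) and 1.2 in the cheek (adjusted p = 0.013). The back call was lost in 9 of the 12 fits that left out 1 mouse, each back mouse among them, with an adjusted p of up to 0.0062, and without cheek mouse 4 both other sites passed, the cheek at 1.66 (adjusted p = 0.0008) and the abdomen at 1.44 (adjusted p = 0.00088). The test of a difference in wound effect between the sites gave an adjusted p of 0.68.

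The 10 Sprr2 genes, small proline-rich proteins of a common design, formed the largest block of rising members. Their summed level was 7.31 to 78.3 FPKM in the 12 unwounded libraries and 359 to 1891 FPKM in the 12 wounds, so that the states did not overlap. In the abdomen 8 of the 10 rose, in the back 9 and in the cheek 8, with a median log2 difference of 4.48, 4.32 and 4.64. Sprr2d, the most abundant of them, lay at 0.93 to 47.1 FPKM over the unwounded libraries with a median of 15.8, and at 88.5 to 701 FPKM over the wounds with a median of 416. It rose by 4.98 (SE 0.53), 4.68 (SE 0.53) and 4.75 (SE 0.53), with adjusted p of 0.00011, 6.9e-05 and 8.7e-05 in abdomen, back and cheek, and the cheek call was lost without cheek mouse 2 (adjusted p = 0.0011). Sprr2e, shown above, lay at 0.11 to 2.30 FPKM in unwounded skin and 9.12 to 45.3 FPKM in wounds and rose at each site, with log2 differences from 3.91 to 4.52.

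Sprr2a1, Sprr2a2 and Sprr2a3 are near copies, and their split is uncertain: 92.5%, 92.8% and 36.2% of the 100-base stretches of their transcripts occur in another Lce or Sprr transcript, against at most 4.90% for the other Sprr2 and Lce1 genes. Their sum is therefore the safer measure. It was 1.25 to 15.95 FPKM in unwounded skin and 170 to 1268 FPKM in wounds, and again no wound library came down to an unwounded one. Sprr2a2 alone was listed at 0 in 5 of 12 unwounded libraries, 3 of them from the back, where the wounds had 381, 332, 332 and 166 FPKM. Sprr2k was 0 in all unwounded libraries and reached 5.74, 1.66, 0.21 and 1.14 FPKM in the abdomen wounds, 4.52, 6.63, 1.82 and 3.55 in the back and 1.66, 1.36, 1.71 and 0.74 in the cheek, and was called in the back only (adjusted p of 0.0027, 7.3e-05 and 0.003 in abdomen, back and cheek). Sprr3, known from internal stratified epithelia, did not exceed 2.64 FPKM in any library, with limma adjusted p of 0.0057, 0.012 and 0.029. Sprr2b had limma adjusted p of 0.0032, 0.0029 and 0.0012. Sprr4 lay at 22.2 to 168 FPKM in unwounded skin and 71.0 to 154 FPKM in wounds, with adjusted p from 0.22 to 0.44. The Sprr4 difference in the cheek was 0.48, but 0.86 without cheek mouse 4 and 0.15 without cheek mouse 2. Sprr2k passed in the abdomen without abdomen mouse 3 (adjusted p = 0.00088), and in the cheek without abdomen mouse 1 (0.00036) or abdomen mouse 3 (0.00094).

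**Figure D3:**
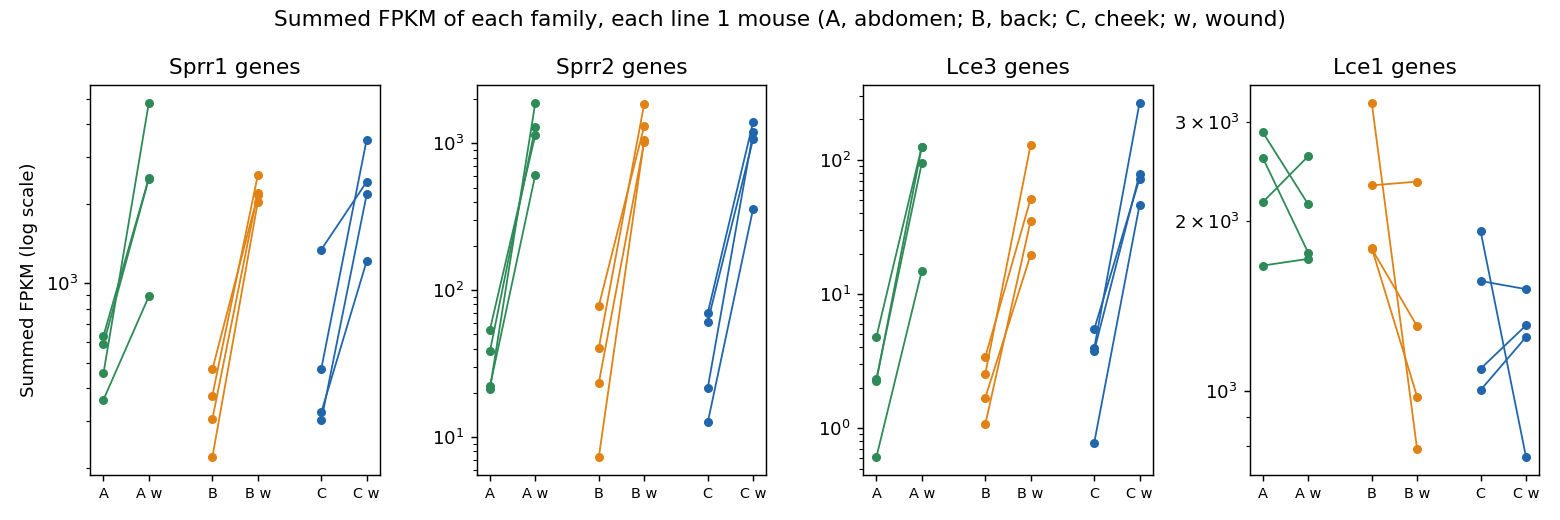
Summed FPKM of the Sprr1, Sprr2, Lce3 and Lce1 genes in each library on log axes, with the unwounded and wound library of a mouse joined by a line for abdomen (A), back (B) and cheek (C). The Sprr2 sum lies between 7.31 and 78.3 in unwounded skin and between 359 and 1891 in wounds, the Lce3 sum moves the same way from lower levels, and the Lce1 lines run both up and down.

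The Lce3 genes, late envelope genes known for their induction on barrier disruption, shared this pattern at far lower levels. Together they gave 0.61 to 5.46 FPKM in unwounded libraries and 14.8 to 267 FPKM in wounds. In the abdomen 5 of the 6 rose, and in the back and the cheek 4. Lce3d stood at 0.13, 0.75, 0.40 and 0 FPKM in the unwounded abdomen, 0.51, 0, 0 and 0.42 in the back and 1.72, 0, 0.40 and 1.03 in the cheek. In the wounds it stood at 24.9, 18.1, 16.7 and 1.96 FPKM in the abdomen, 9.59, 3.41, 7.15 and 19.8 in the back and 22.5, 13.1, 43.5 and 17.7 in the cheek. Every wound value was above every unwounded one, but abdomen mouse 4, at 1.96 FPKM, only just passed the unwounded cheek of mouse 1. The log2 difference was 3.95 (SE 0.47), 3.67 (SE 0.47) and 4.33 (SE 0.47), with adjusted p of 0.00017, 0.00012 and 5.4e-05. Without abdomen mouse 3 the abdomen value had an adjusted p of 0.0016, and without back mouse 3 or back mouse 4 that of the back was at most 0.0011.

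Lce3b was listed at 0 in 11 of 12 unwounded libraries and at 0.52 FPKM in unwounded cheek of mouse 4, and in wounds it reached 24.5, 13.9, 11.7 and 2.18 FPKM in the abdomen, 8.59, 1.43, 5.95 and 15.1 in the back and 6.86, 4.68, 22 and 13.2 in the cheek. Its call was lost without any of abdomen mice 1, 2 and 3 in the abdomen, without back mouse 1, 3 or 4 in the back and without any single cheek mouse in the cheek, with adjusted p of up to 0.0027. Lce3c, Lce3d, Lce3e and Lce3f share 24.1% to 43% of their 100-base stretches with other members, mostly Lce3f, so the share of each is less certain than the sum. Lce3f, named here after its values were seen, passed in the abdomen only (adjusted p = 0.00099), with an adjusted p of 0.001 in the cheek and 0.011 in the back. That abdomen call held in only 3 of the 12 fits that left out 1 mouse (limma adjusted p of up to 0.0069). Lce3a had adjusted p of 0.0055, 0.0063 and 0.012.

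None of the 14 Lce1 genes, the late envelope genes of normal epidermis, passed the wound test at any site. Their summed level was 1004 to 3246 FPKM in unwounded skin and 763 to 2609 FPKM in wounds, and the lines of single mice crossed. The median log2 difference was 0.04 in the abdomen, -0.62 in the back and 0.16 in the cheek. At an unadjusted p under 0.05 there were 3, 7 and 5 of 14 in abdomen, back and cheek, where 44.3%, 53.5% and 46.4% of all genes had one, and at an adjusted p under 0.05 there were 2 higher in the abdomen, 4 lower in the back and 1 each way in the cheek. Within this single gene block the estimates pointed in opposite directions. The most abundant in unwounded skin, Lce1m, was lower in the wound of all 12 mice, and Lce1g, named after its values were seen, was higher in 11 of 12.

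Lce1m lay at 753, 711, 652 and 481 FPKM in the unwounded abdomen, 678, 477, 455 and 592 in the back and 507, 355, 531 and 255 in the cheek. In wounds it lay at 207, 384, 404 and 359 FPKM in the abdomen, 90.8, 128, 109.9 and 298 in the back and 267, 114, 27.5 and 151 in the cheek. Wound and unwounded values did not overlap in the abdomen or the back, while in the cheek the wound of mouse 1 exceeded the unwounded skin of mouse 4. The log2 difference was -0.97 (SE 0.51), -1.96 (SE 0.51) and -1.89 (SE 0.51), with limma adjusted p of 0.17, 0.01 and 0.015, none past 0.001. Without back mouse 4 the back difference was -2.28 with an adjusted p of 0.013, and without cheek mouse 3 it was -1.96 with an adjusted p of 0.00044, past the threshold. The cheek difference was -1.11 without cheek mouse 3 and -2.27 without cheek mouse 4 (adjusted p of 0.034 and 0.014). Lce1l, also lower in all 12 mice, had differences of -0.73, -1.69 and -0.77 (adjusted p of 0.14, 0.0028 and 0.11), and the back passed without cheek mouse 3 (adjusted p = 0.00065). Lce1g went the other way, from 4.73 to 56.4 FPKM in unwounded skin to 24.2 to 78.6 FPKM in wounds, with differences of 1.81, 0.95 and 2.01 (adjusted p of 0.032, 0.2 and 0.019). The abundant Lce1a1 and Lce1b had differences from -0.88 to -0.04, with adjusted p of 0.72, 0.064 and 0.92 and 0.8, 0.049 and 0.75 in abdomen, back and cheek. Lce6a, the member of its own group, had adjusted p from 0.31 to 0.78.

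**Figure D4:**
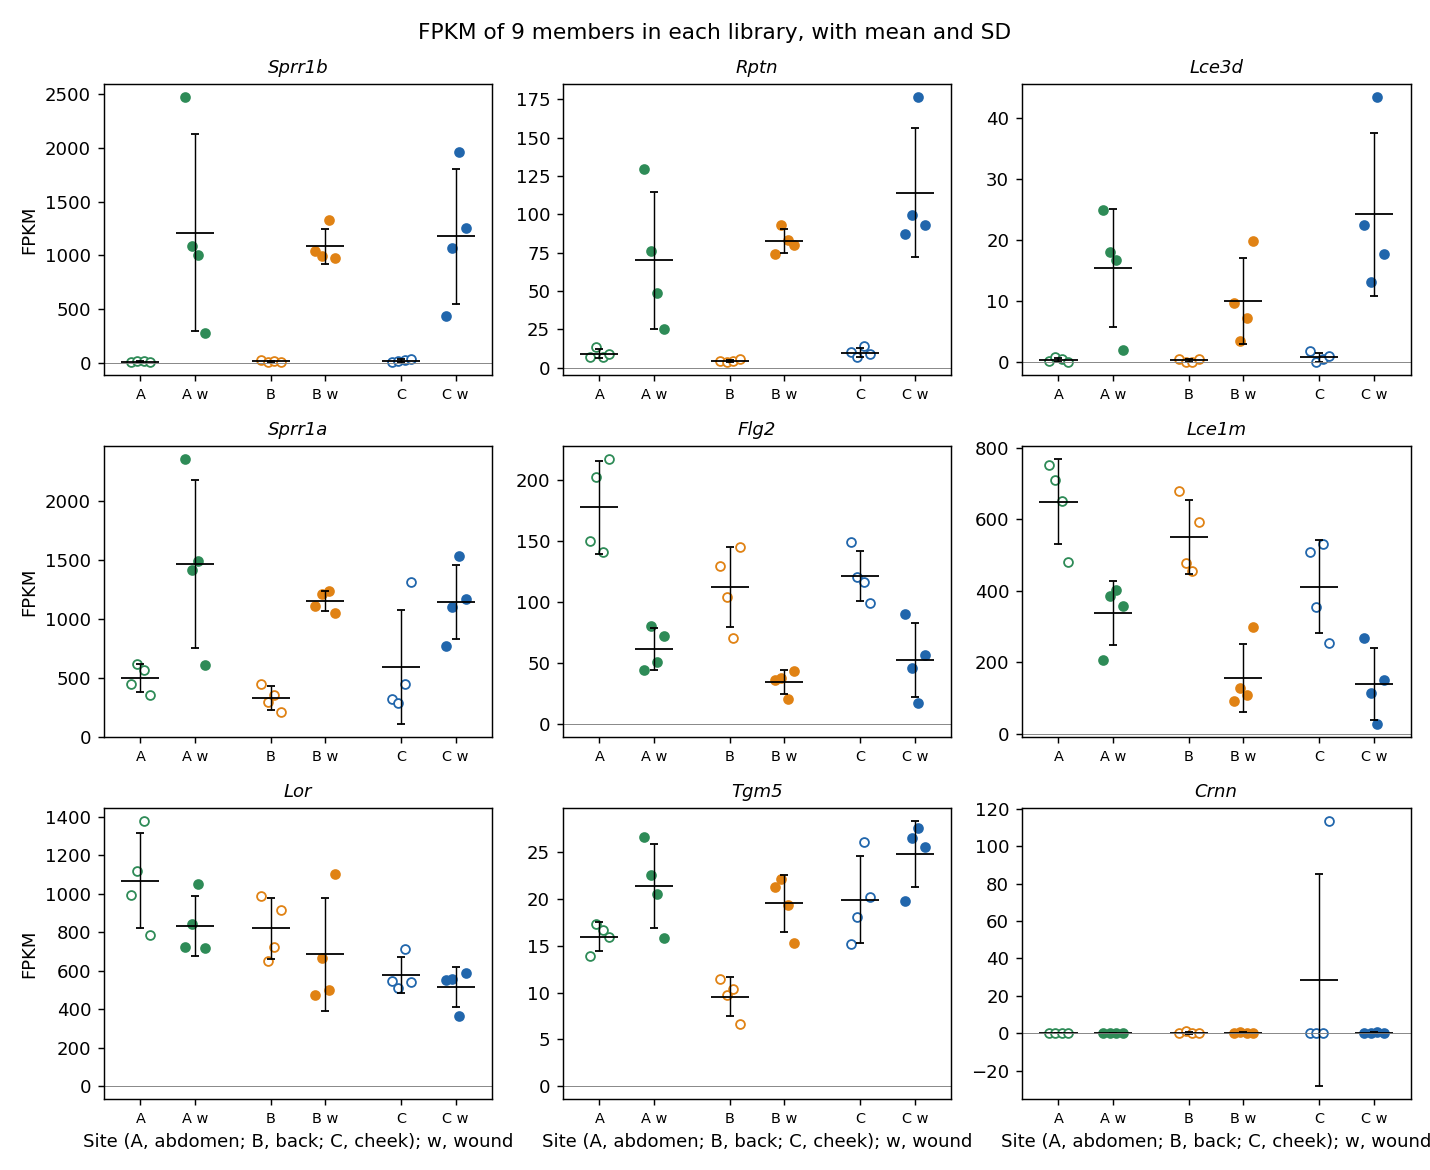
FPKM of 9 members in each library on linear axes, for unwounded skin (open points) and wounds (filled points, w) of abdomen (A), back (B) and cheek (C), with the mean as a bar and the SD as whiskers over 4 mice. Sprr1b, Rptn and Lce3d are near the base line in unwounded skin and spread upwards in wounds, Flg2 moves down, Lor overlaps between states, and the Crnn mean of unwounded cheek rests on mouse 4 alone (113.54 FPKM).

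Of the envelope precursors, neither loricrin nor involucrin passed the wound test. Lor lay at 997, 1118, 1379.7 and 786 FPKM in the unwounded abdomen, 989, 649, 726 and 918 in the back and 546, 509.9, 715 and 540.1 in the cheek. Its wound values were 725, 843, 1054 and 718 FPKM in the abdomen, 472, 665, 501 and 1106 in the back and 552, 555, 363 and 591 in the cheek. The states overlapped at every site. It was lower in the wound of 7 of 12 mice, all 4 abdomen mice among them, and the differences of -0.35 (SE 0.21), -0.32 (SE 0.21) and -0.18 (SE 0.21) had adjusted p of 0.22, 0.22 and 0.54. Without cheek mouse 3 the cheek value turned to 0.09. Ivl, the early scaffold protein, was higher in the wound of 11 of 12 mice, at 30.7 to 59.0 FPKM in unwounded skin and 40.6 to 119 FPKM in wounds, with differences of 0.20 (SE 0.20), 0.70 (SE 0.20) and 0.37 (SE 0.20) and adjusted p of 0.48, 0.014 and 0.17. The cheek difference was 0.18 without cheek mouse 2 (adjusted p = 0.58) and 0.60 without cheek mouse 4 (adjusted p = 0.035).

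Among the filaggrin-related genes, which encode large repeat proteins with a calcium-binding head, Rptn and Flg2 moved in opposite directions. Rptn, a matrix protein joined to the envelope, lay at 7.17, 13.4, 7.12 and 8.92 FPKM in the unwounded abdomen, 4.2, 3.74, 4.03 and 5.58 in the back and 10.1, 6.65, 13.9 and 8.75 in the cheek. Its wound values were 129.6, 76.2, 48.5 and 25.2 FPKM in the abdomen, 74.4, 93.2, 83.3 and 79.8 in the back and 87, 99.7, 177 and 93 in the cheek. All wound values were above all unwounded values, with abdomen mouse 4 again the lowest. Rptn rose by 2.67 (SE 0.31), 4.10 (SE 0.31) and 3.45 (SE 0.31), with adjusted p of 0.00014, 3.2e-06 and 1.4e-05, and without abdomen mouse 3 the abdomen value had an adjusted p of 0.0013.

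Flg2, which takes part in the hydration and cohesion of the outermost layer, lay at 150.3, 203, 141 and 217 FPKM in the unwounded abdomen, 129.7, 105, 70.3 and 145 in the back and 149, 121, 116 and 99.7 in the cheek. In wounds it lay at 44, 80.3, 51 and 72.3 FPKM in the abdomen, 35.9, 37.9, 20.4 and 43.3 in the back and 90.2, 45.9, 17.4 and 56.3 in the cheek. At each site every wound value was below every unwounded value, and all 12 mice showed the fall. The differences were -1.53 (SE 0.25), -1.70 (SE 0.25) and -1.41 (SE 0.25), with adjusted p of 0.00098, 0.00023 and 0.0011, so that Flg2 passed 0.001 in abdomen and back and just missed it in the cheek. The abdomen call was a narrow one, lost in 9 of the 12 fits that left out 1 mouse (adjusted p of up to 0.0068), the back call was lost without any single back mouse (up to 0.0018), and the cheek difference passed without cheek mouse 3, at -0.97 (adjusted p = 0.00031), and under median-ratio scaling (adjusted p = 0.0007) or quantile normalisation (adjusted p = 0.00089). No difference of the effect between sites was detected (adjusted p = 0.86).

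Hrnr, a further filaggrin-related gene, lay at 32.8 to 79.3 FPKM in unwounded skin and 30.3 to 78.0 FPKM in wounds, with differences of 0.08 (SE 0.18), 0.13 (SE 0.18) and 0.72 (SE 0.18) and adjusted p of 0.75, 0.59 and 0.0095. The abdomen estimate turned to -0.08 without abdomen mouse 1 and the back estimate to -0.09 without back mouse 2. Crnn was at or under 1.14 FPKM in all libraries but unwounded cheek of mouse 4 and was not tested.

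The transglutaminases, the enzymes that make the cross-links, were higher in nearly every wound but passed the threshold once. Tgm5 lay at 13.9, 17.4, 16.7 and 16 FPKM in the unwounded abdomen, 11.5, 9.73, 10.4 and 6.6 in the back and 15.2, 18.1, 26.1 and 20.2 in the cheek. Its wound values were 26.7, 22.5, 20.5 and 15.8 FPKM in the abdomen, 21.3, 22.1, 19.4 and 15.3 in the back and 19.7, 26.6, 27.6 and 25.5 in the cheek. Only in the back were the states apart, and the unwounded back values were the lowest of all. Tgm5 rose in the back by 1.01 (SE 0.12, adjusted p = 5e-05), a call held in all 12 fits that left out 1 mouse. The differences in abdomen and cheek were 0.39 and 0.33 (adjusted p = 0.03 and 0.055).

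Tgm3, active in the granular layer and the hair follicle, was higher in the wound of all 12 mice without passing. Its unwounded values were 12.1, 12.2, 12.7 and 10.5 FPKM in the abdomen, 6.99, 2.87, 2.8 and 6.83 in the back and 3.16, 1.86, 3.97 and 22.6 in the cheek. Its wound values were 48.2, 30.8, 26.3 and 21.2 FPKM in the abdomen, 34.7, 30.4, 36.8 and 16.9 in the back and 13.6, 30.7, 57.8 and 40.5 in the cheek. The states were apart in abdomen and back, and in the cheek only unwounded mouse 4 reached into the wound range. The differences were 1.31 (SE 0.48), 2.54 (SE 0.48) and 2.55 (SE 0.48), with adjusted p of 0.06, 0.0018 and 0.0025. Without cheek mouse 4 the cheek difference was 3.12 with an adjusted p of 0.00089, and the back difference of 2.54 then had an adjusted p of 0.0007, both past the threshold. Tgm1, the membrane-bound enzyme of keratinocytes, went from 18.6 to 39.7 FPKM in unwounded skin to 24.9 to 68.8 FPKM in wounds, with differences of 0.41, 0.98 and 0.57 (adjusted p of 0.11, 0.0012 and 0.032). Its back difference passed without abdomen mouse 1 (adjusted p = 0.0001) and without cheek mouse 4 (adjusted p = 0.00084).

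The corneodesmosome and secreted products hardly differed between states. Cdsn, the adhesive protein of corneodesmosomes, lay at 180 to 279 FPKM in unwounded skin and 191 to 320.0 FPKM in wounds. The differences of Cdsn, Sbsn, Dmkn and Krtdap lay between -0.31 and 0.26 at all sites. The smallest adjusted p of the 4 was that of Sbsn in the abdomen, 0.024, where all 4 mice were lower in the wound, with a difference of -0.31 (SE 0.10). The Krtdap difference in the cheek, 0.26, was 0.10 without cheek mouse 4, and that of Dmkn, 0.17, was 0.08. Estimates this close to 0 changed sign with the scaling of libraries for all 4 genes in the back.

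Set beside the wound calls, TGANTCA was in 7 of 14 windows of the members that rose at all sites (50%) and in 8 of 31 windows of the members called at none (25.8%). These windows are not independent. The 31 came from 27 genes, with several matches in windows of Dmkn alone. Most of the 7 were Sprr2 windows with the match beginning between 193 and 198 bases before the start. The Lce3 windows, Lce3c among them, had no TGANTCA although 4 of the 6 genes rose at every site, and the windows of Lor and Flg2 had it. TATAAA was in 8 of 14 (57.1%) and 10 of 31 windows (32.3%). Among these, the matches of Lce3e and Lce6a were tttata, on the other strand. They began 243 and 218 bases before the start and are counted as matches to letters only.

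Differences between sites in unwounded skin were few. Sites were compared over the 12 unwounded libraries with limma at an adjusted p under 0.05, with 40 members among 13956 genes tested. Between back and abdomen, 2 of 40 members differed, both lower in the back, where 2.67% of all genes differed and 2.14% were lower. The difference was -0.95 for Rptn (SE 0.23, adjusted p = 0.047) and -0.74 for Tgm5 (SE 0.18, adjusted p = 0.047), and for both genes all 4 back values were under all 4 abdomen values. The median over all genes was -0.12 in this comparison. Under median-ratio scaling or quantile normalisation neither gene passed. The Rptn call was lost in 9 of the 12 fits that left out 1 mouse and the Tgm5 call in 8, with adjusted p of up to 0.15, and no member passed without abdomen mouse 2 or 3 or back mouse 2, 3 or 4. Without cheek mouse 4, 3 members passed, with no share of all genes from that fit beside them.

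Cheek against abdomen gave 3 of 40 members, all lower in the cheek, where 2.57% of all genes differed, 1.33% higher and 1.23% lower. Lor differed by -0.87 (SE 0.19, adjusted p = 0.034), with all 4 cheek values under all 4 abdomen values. Krtdap differed by -0.88 (SE 0.21, adjusted p = 0.043), at 2356, 1841, 2653 and 1579.6 FPKM in the cheek and 3927, 3784, 5002 and 2808 FPKM in the abdomen. Sbsn differed by -0.62 (SE 0.14, adjusted p = 0.042), at 1319, 1118, 1418 and 1062 FPKM in the cheek and 1791, 1886, 2283 and 1625 FPKM in the abdomen. Of the 40 estimates, 30 were below 0, with a median of -0.47 against 0.03 over all genes. All 14 Lce1 estimates were among the 30, although none passed. Cell type markers differed between these pieces of skin too. Krt10 lay at 1652 to 2206 FPKM in the cheek and 2558 to 3198 FPKM in the abdomen, whereas Krt5, Krt14 and Krt15 overlapped. The muscle marker Acta1 was 181 and 1023 FPKM in abdomen mice 2 and 3, against 3845 to 7221 FPKM in the cheek. The part of tissue make-up in the members' site differences was not tested. The number called was 1 without cheek mouse 4, 0 without abdomen mouse 2 or 3 or cheek mouse 2, 6 without abdomen mouse 4 and 7 without cheek mouse 3. With no shares of all genes from those fits beside them, these counts are no result about the members. Lor was lost without abdomen mouse 2 or 3 or cheek mouse 1, 2 or 4 (adjusted p of up to 0.11), and Krtdap and Sbsn each in 10 of the 12 fits (up to 0.14 and 0.13).

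Cheek against back shares its libraries with the comparisons above. Here 2 of 40 members differed, where 1.05% of all genes differed, 0.559% higher and 0.494% lower. Tgm5 was higher in the cheek by 1.02 (SE 0.18, adjusted p = 0.017), with no overlap of values, and this was the site call that held in all 12 fits that left out 1 mouse, with a highest adjusted p of 0.048. Lce1a2 was lower in the cheek, with a difference of -0.96 (SE 0.20, adjusted p = 0.036), at 151, 107, 116 and 93.9 FPKM against 301, 186, 199 and 229 FPKM in the back. That call was lost in 9 of the 12 fits (adjusted p of up to 0.1), and without cheek mouse 4 the number called was 1. The median over all genes was 0.14. Every Lce1 estimate was below 0 here too, from -1.37 to -0.46, although only Lce1a2 passed.

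In the wounds, site differences of the members were fewer still, over 47 members and 14023 genes tested. Between back and abdomen limma called none of the 47, where 1.27% of all genes differed and 0.763% were lower. At an unadjusted p under 0.05 there were 6, a smaller share than that of all genes (16.5%) and so no result about the members. These 6 were Lce1 genes, which lie side by side, and all were lower in the back. Lce1b (adjusted p = 0.18) and Lce1j (adjusted p = 0.18) came first, and Lce1j passed without back mouse 4 (adjusted p = 0.026). Cheek against abdomen gave 1 of 47, where 10.8% of all genes differed, 7.52% higher and 3.32% lower. At an unadjusted p under 0.05 there were 11, all lower in the cheek, again a smaller share than that of all genes (31.6%). The member called was Dmkn, lower in the cheek, with a difference of -0.45 (SE 0.11, adjusted p = 0.03). It lay at 1589, 1716, 1876 and 1835 FPKM against 2513, 2336, 2810.2 and 1997 FPKM in the abdomen. The call was lost without abdomen mouse 3 or any single cheek mouse (adjusted p of up to 0.073). Without back mouse 4, whose libraries enter only the shared spread, 6 members passed, without abdomen mouse 1 there were 3 and without abdomen mouse 4 there were 2. The shares of all genes in these fits are not given here, so these counts are no result about the members. After Dmkn, Sbsn was next, with a difference of -0.37 (adjusted p = 0.057, and 0.042 without abdomen mouse 4). With limma, cheek against back gave none of 47, where 2.50% of all genes differed, 1.90% higher and 0.599% lower, with 1 at an unadjusted p under 0.05 (26.1% of all genes), Sprr2a2 (-1.97, adjusted p = 0.067, and 0.028 without abdomen mouse 3). Sprr2k followed with a difference of -1.23 (adjusted p = 0.19).

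Whether the wound effect itself differed between sites was tested by an F test over the 3 wound effects. With limma none of the 47 members passed an adjusted p of 0.05, where 3 of 14423 genes (0.0208%) did. The tests of single pairs of sites also called none, where they called 0.00693% of all genes for cheek against abdomen, 0.0277% for cheek against back and 0 for back against abdomen, and 2, 5 and 4 of the 47 had an unadjusted p under 0.05, against 11.9%, 7.07% and 15.2% of all genes. Without abdomen mouse 1 the back against abdomen test called 4 members. The share of all genes in that fit is not given here, so this count is no result about the members. In the F test, at an unadjusted p under 0.05 there were 3 of 47, against 12.9% of all genes: Tgm5 (adjusted p = 0.23), Sprr2a2 (adjusted p = 0.24) and Rptn (adjusted p = 0.32). The members called at some sites only, Sprr1a, Sprr2k, Lce3f, Tgm5 and Flg2, were thus not shown to differ between sites. Without abdomen mouse 1, 2 members passed, Tgm5 among them (adjusted p = 0.025), again with no share of all genes from that fit beside them.

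Other genes of cornification are set beside the shares of all genes that rose, 3.92% in the abdomen, 10% in the back and 6.50% in the cheek. Shares near these are no result about a list, as for 1 of 8 genes. Of 13 cornification enzymes and inhibitors, none passed in the abdomen, 4 rose in the back and 2 in the cheek, and none fell. Casp14, a protease of the cornifying layer, lay at 22.8 to 86.3 FPKM in unwounded skin and 106 to 355 FPKM in wounds. It rose by 2.44 (SE 0.34) in the back and 2.33 (SE 0.34) in the cheek, and its abdomen difference of 2.00 just missed (limma adjusted p = 0.0016). Klk8, a kallikrein protease, rose by 1.598 in the back and 1.53 in the cheek (SE 0.22 each), and its abdomen difference of 1.285 just missed (limma adjusted p = 0.0012). Of 14 barrier lipid genes, 1, 3 and 2 rose in abdomen, back and cheek, led by Degs2, a sphingolipid hydroxylase, with 2.76 in the abdomen and 4.61 in the back (SE 0.27 each). The Degs2 difference in the cheek, 1.43, did not pass (limma adjusted p = 0.002). Of 8 plakin and desmosome genes, 1 rose in the abdomen, 1 in the back and none in the cheek. Among 8 tested of 11 further genes of the complex, none passed in the abdomen, 1 rose in the back and 2 in the cheek, with S100a11, a small calcium-binding protein, in both.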

How the data were processed

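RNA of whole skin from 12 mice was sequenced in 24 libraries. According to the authors, reads were mapped to mm10 with HISAT2 and Bowtie2 2.2.5, and RSEM 1.2.12 gave the deposited FPKM values, written with 2 decimals and not scaled between libraries. Read counts were not used here, so that depth was known only in relative terms. A further deposited table holds log2 fold changes and adjusted p-values of 9 comparisons and was not used. No per-sample column was left out (0 unused), and no pair of libraries held identical values (0 pairs).

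FPKM were analysed as log2(FPKM + 0.5) with limma 3.58.1 (R 4.3.3, statmod 1.5.0, trend and robust moderation), leaving out genes that reached 0.5 FPKM in fewer than 4 of the libraries fitted, with Benjamini-Hochberg adjustment over all of them. Wound effects were fitted over 24 libraries with the mouse as a block and called at an adjusted p under 0.001. Sites were compared within 12 libraries of a state, and wound effects between sites by F tests and by pairs, at 0.05. The pairing came from the labels, which give each mouse a wound and an unwounded library. Deviations from the group mean correlated within a mouse with a mean r of 0.322, 0.348 and 0.281 for abdomen, back and cheek (lowest -0.0299). Between mice the mean r was -0.108, -0.116 and -0.0958. Deviations cancel out within a group, so the values between mice follow largely from those within a mouse and are no separate baseline. Mice of the same number at different sites are different animals. With 4 mice per group, p-values of wound effects and of their site differences rest on the spread of within-mouse differences, pooled over the sites. Those of the site comparisons rest on the spread between mice of a site.

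The members and all gene lists were chosen with earlier results of these data known. Genes were named by rule: the 13 listed genes, in the Lce and the Sprr family the 3 most abundant genes and the 2 with the largest mean wound rise and the 2 with the largest fall or smallest rise, and the 2 members with the smallest p in each site comparison and in the F test, 28 in all. Sprr2b, Sprr2e, Lce1g, Lce3a, Lce3c, Lce3f and Lce6a were named after their values were seen. Promoters are those of RefSeq (GRCm38.p6). Alternatives were another pseudocount, filter, scaling, moderation, block, choice of libraries or threshold, and leaving out each mouse. A list of transcription regulators is not reported here. The fits were tested on simulated data. Python 3.11.15, pandas 2.3.3, numpy 2.4.6 and matplotlib 3.10.9 were used.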

Additional observations from a re-analysis of the deposited data

Results flagged for a closer look

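In 157 groups of 4 libraries of the 28 named members, 6 libraries lay far from the other 3 of their group, with a gap to the nearest past Dixon's critical value for the group's range. Chance gives about 1 such group in 20. Unwounded cheek of mouse 4 had Crnn at 113.54 FPKM and Lce3b at 0.52 FPKM. Among wounds, Lor was low in cheek mouse 3 (362.89 FPKM), Lce3d was low in abdomen mouse 4 (1.96 FPKM) and Sprr2a2 was low in back mouse 4 (166.28 FPKM). Sprr2a2 was also the only nonzero value of unwounded back in mouse 4 (1.14 FPKM).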

How the results depend on the processing

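The counts of members called, the median differences and the named members were recomputed under other settings, 1 at a time. Counts for other gene lists, at unadjusted p and of motifs were not. The shares of all genes called in the fits that left out 1 mouse are not given here. Fitting the 8 libraries of 1 site gave 2 rises in the abdomen and 8 in the cheek, and a median abdomen difference of 0.7545. At an adjusted p under 0.05 there were 23 rises and 2 falls in the abdomen, 5 falls in the back, and 24 rises and 2 falls in the cheek. Falls in the abdomen went to 0 with a pseudocount of 0.1 or no filter, and falls in the cheek to 1 under median-ratio scaling and 1 under quantile normalisation. Without the replicate block, that is without the pairing by mouse, 13, 16 and 13 members rose in abdomen, back and cheek and 0, 2 and 0 fell.

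In unwounded skin, back against abdomen gave 1 member with a pseudocount of 1 FPKM, 0 without a filter, 0 under median-ratio scaling, 0 under quantile normalisation and 1 without trend and robust moderation, cheek against abdomen 1 without a filter, and cheek against back 1 without a filter and 1 with all 24 libraries in the fit. A block on the mouse number, which pairs different animals, gave 1 in each of the comparisons with the abdomen. In wounds, cheek against abdomen gave 2 under median-ratio scaling and 0 with all 24 libraries. The cause of these shifts was not tested.

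Leaving out 1 mouse at a time moved the rises between 7 and 15 in the abdomen, 13 and 19 in the back and 9 and 16 in the cheek, and the falls between 0 and 1, 0 and 3 (without cheek mouse 3), and 0 and 1. The site counts moved between 0 and 3, 0 and 7, and 1 and 2 in unwounded skin (back against abdomen, cheek against abdomen, cheek against back), between 0 and 1, 0 and 6, and 0 and 1 in wounds, and between 0 and 2 for the F test. The median differences moved between 0.8981 and 1.178, 0.62 and 1.064, and 0.804 and 1.216 in abdomen, back and cheek. Uncalled values near 0 changed sign. Under quantile normalisation these were, in the back, Cdsn (-0.03198), Krtdap (0.01055), Sbsn (-0.1978) and Dmkn (-0.1227), and Sbsn also under median-ratio scaling (-0.05162). Without 1 mouse they ranged in the abdomen from -0.07796 to 0.2027 for Hrnr, -0.07561 to 0.01909 for Dmkn, -0.2856 to 0.08206 for Lce1b and -0.3056 to 0.09778 for Lce1j. In the back they ranged from -0.0935 to 0.3852 for Hrnr, -0.02523 to 0.3551 for Cdsn, -0.106 to 0.1321 for Krtdap and -0.05635 to 0.1141 for Sbsn. In the cheek they ranged from -0.2796 to 0.0892 for Lor, -0.1902 to 0.2768 for Lce1a1, -0.3143 to 0.2111 for Lce1b, -0.3681 to 0.1426 for Lce1a2 and -0.05478 to 0.6612 for Lce1j.

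Over all genes, scaling moved the share of calls that were higher. In wounds against unwounded skin it went from 79% to 61.9% in the abdomen, 69.6% to 52.1% in the back and 74.8% to 62.4% in the cheek under quantile normalisation. Under median-ratio scaling it went from 19.8% to 38.3%, 52% to 37.4% and 53.1% to 24.7% for back against abdomen, cheek against abdomen and cheek against back in unwounded skin, and from 39.9% to 50%, 69.4% to 47.4% and 76.1% to 40.7% in wounds.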
